A study of Mus musculus with 23 samples.

Results

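The genes described here are the constitutive proteasome genes of mouse liver, taken from a table of gene RPKM values (read counts scaled to gene length and to the library's mapped reads). They were chosen by symbol alone: every gene named Psma, Psmb, Psmc, Psmd, Psme, Psmf or Psmg with a number, without the 5 genes that interferon induces (Psmb8, Psmb9, Psmb10, Psme1 and Psme2), and with at least 0.5 RPKM in at least 5 libraries. Of the 24475 genes in the table, 43 had such a symbol and 42 passed the level filter. The gene that did not was Psmb11, which encodes the catalytic subunit of the thymus form of the proteasome. Among all genes, 11939 passed the same filter and were tested together.

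The study followed male C57BL/6J mice kept for 4 months on regular chow or a high fat diet (HFD) and then treated for 3 weeks with an antibody dosed at 10 mg/kg. The antibody was REGN1193, which blocks the glucagon receptor (GCGR), or REGN496, which was taken as the isotype control because it is the other antibody in the labels. Whole liver RNA gave 5 libraries of chow with control antibody, 6 of chow with GCGR antibody, 6 of HFD with control antibody and 6 of HFD with GCGR antibody. The labels do not say that each library came from a separate animal, and they give no batch, so p-values measure the spread between these libraries, which may in part be technical. Libraries are numbered 1 to 23 as in the labels. RPKM summed to between 594026 and 692295 per library, the highest being library 19, and the depth behind the values is unknown because no counts are used here. The summed level of 10 hepatocyte markers, all detected, ran from 65266 to 85458 RPKM.

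The proteasome is the cell's main machine for degrading proteins tagged with ubiquitin. Its core particle is a barrel of alpha and beta rings, with the protein-cutting sites on the beta subunits Psmb5, Psmb6 and Psmb7. A regulatory particle caps the barrel: the ATPases of its base (Psmc genes) unfold substrates, and its lid (most Psmd genes) removes ubiquitin. Other caps, such as PA200 (Psme4) and PA28 gamma (Psme3), can take its place, and dedicated chaperones (Psmg1 to Psmg4, Psmd5, Psmd9 and Psmd10) help to assemble the complex. When proteasome activity falls, the transcription factor Nfe2l1 raises proteasome genes together, and interferon replaces the catalytic subunits by Psmb9, Psmb10 and Psmb8, which makes the immunoproteasome.

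The sequences below are the 250 bases upstream of the transcription start of 4 members, shown because 3 of them, Psmg4, Psme4 and Psmd11, passed the test in both diet comparisons and Psmd9 was the member that passed it for the antibody. They come from the RefSeq promoter table of build GRCm38.p6 and read 5′ to 3′ on the gene's strand, which is the plus strand for all of them. Psmg4 lies at chr13:34162714-34162963, Psme4 at chr11:30771525-30771774, Psmd11 at chr11:80428365-80428614 and Psmd9 at chr5:123227940-123228189. Capitals mark a match to one of the motifs listed after the sequences.
Psmg4: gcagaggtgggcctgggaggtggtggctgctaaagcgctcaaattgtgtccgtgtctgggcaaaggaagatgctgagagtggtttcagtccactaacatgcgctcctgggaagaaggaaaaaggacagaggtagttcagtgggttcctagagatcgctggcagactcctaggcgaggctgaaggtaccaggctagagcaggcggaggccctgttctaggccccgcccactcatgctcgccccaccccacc
Psme4: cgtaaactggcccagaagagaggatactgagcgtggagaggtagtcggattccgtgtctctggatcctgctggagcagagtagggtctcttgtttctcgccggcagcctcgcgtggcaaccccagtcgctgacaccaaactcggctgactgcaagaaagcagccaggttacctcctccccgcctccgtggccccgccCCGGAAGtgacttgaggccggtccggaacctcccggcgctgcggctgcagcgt
Psmd11: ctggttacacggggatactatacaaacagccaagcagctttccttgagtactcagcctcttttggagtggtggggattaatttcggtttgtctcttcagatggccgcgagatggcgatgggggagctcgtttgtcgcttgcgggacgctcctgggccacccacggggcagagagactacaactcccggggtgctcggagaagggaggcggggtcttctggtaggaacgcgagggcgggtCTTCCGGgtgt
Psmd9: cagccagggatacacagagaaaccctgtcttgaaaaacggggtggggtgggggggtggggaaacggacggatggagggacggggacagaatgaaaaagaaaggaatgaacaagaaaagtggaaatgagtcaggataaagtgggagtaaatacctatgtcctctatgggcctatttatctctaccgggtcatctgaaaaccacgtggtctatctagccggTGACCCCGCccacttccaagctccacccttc

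Motifs were searched on both strands and were allowed to overlap. The letters were CCGGAAG for the core bound by ETS factors, CCAAT for the NF-Y box, TGACNNNGC for the core of the antioxidant response element that Nfe2l1 and Nfe2l2 bind with Maf partners, TGACTCAGC for a strict form of it that lies within the core's pattern, and GCATGCGC for nuclear respiratory factor 1. The table held 36 windows for 34 of the 42 members and none for Psma8, Psmb1, Psmb2, Psmb7, Psmc3, Psmd3, Psmd7 and Psmg2. The ETS core was found in 13 of the 36 member windows (36.1%), in 13.2% of the windows of genes tested and in 6.91% of all windows. It starts 53 bases before the transcription start in Psme4 and 11 bases before it, on the opposite strand, in Psmd11. The antioxidant response core was found in 13.9% of member windows and 11.7% of those of genes tested, and the one in Psmd9 starts 31 bases before the transcription start. The strict form was in 0 of the 36 member windows and in 0.407% of those of genes tested. The NF-Y box was in 33.3% of member windows and 35.6% of those of genes tested, and the nuclear respiratory factor core in 5.56% and 4.20%. The Psmg4 window held none of the 5 motifs. These are matches of letters, which show neither binding nor its absence.

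Constitutive proteasome mRNA was abundant, and the median level of a role followed its place in the complex. On the RPKM scale, which is per length, the core particle was highest by median. Medians of gene means were 75.6 for the alpha ring, 105.0 for the 3 catalytic beta subunits and 93.4 for the 4 other beta subunits. The median was 50.6 RPKM for the 6 base ATPases, 57.4 for the 3 other base genes and 37.7 for the 8 lid genes. The 3 other activators and inhibitor had a median of 18.7 RPKM and the 7 assembly chaperones one of 10.3. The order of medians was thus core, base, lid, other activators with the inhibitor, and chaperones. Single genes crossed this order. Psmd8 of the lid, at a mean of 61.0 RPKM, lay above Psma1 of the alpha ring, at 56.5, and the inhibitor gene Psmf1 had a mean of 7.02.

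The highest single gene was Psmb1, a beta subunit without a cutting site, at a mean of 114.6 RPKM over the 23 libraries. Psmb7, which carries the trypsin-like site, followed at 105.0, Psmb6, which carries the caspase-like site, also at 105.0, and Psmb4, another beta subunit, at 102.3. Psmb1 was above Psmb7 in 16 of 23 libraries and Psmb7 above Psmb6 in 11 of 23, and each of these gaps was smaller than 1 SD over the libraries. Psmb5, which carries the chymotrypsin-like site, had a mean of 82.9 RPKM. The lowest were Psmd10, a chaperone of the base, at 5.33 RPKM and Psma8, the alpha subunit of the testis proteasome, at 0.481. Psma8 was the member just inside the level filter, with values from 0.189 to 1.44 RPKM, and Psmb11, at a mean of 0.0621 RPKM, lay just outside it.

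**Figure D1:**
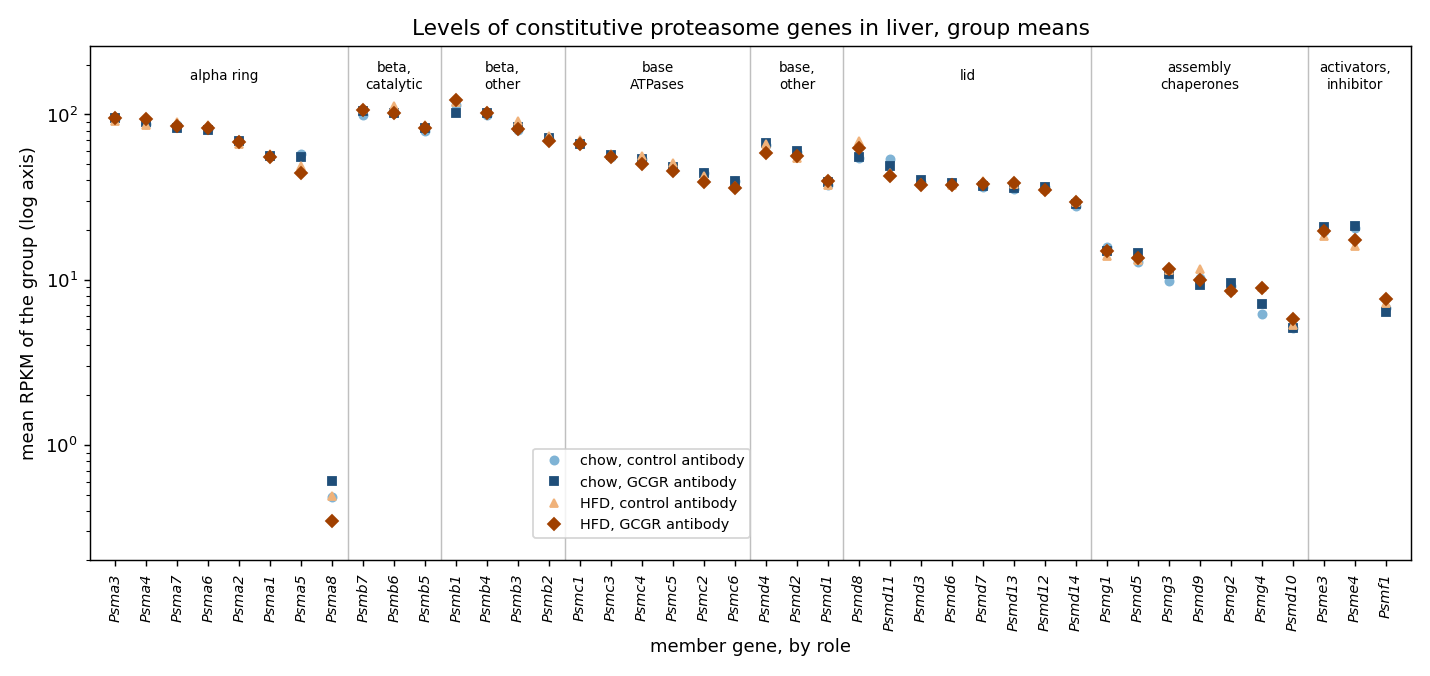
Mean RPKM of each of the 42 member genes on a log axis, ordered by role in the complex and then by level, with one symbol for each of the 4 diet and antibody groups. The 4 symbols of a gene nearly coincide for most genes, most core particle genes lie highest, assembly chaperones near 10.3 RPKM and Psma8 alone below 1 RPKM.

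The summed level of the 42 genes differed little between the groups. It was 2085 ± 38.7 RPKM (SD, n = 5) on chow with control antibody, 2096 ± 46.3 (SD, n = 6) on chow with GCGR antibody, 2144 ± 107 (SD, n = 6) on HFD with control antibody and 2076 ± 84.9 (SD, n = 6) on HFD with GCGR antibody. The 4 ranges overlapped. As a share of all RPKM in a library, the sum was 0.338% ± 0.00517, 0.331% ± 0.00973, 0.33% ± 0.0113 and 0.323% ± 0.0153 (SD) in the same order of groups, so that chow with control antibody was highest by share and HFD with control antibody by sum. Both HFD groups were more spread than the chow groups, with library 12 at 2296, library 14 at 2262 and library 19 at 2238. In library 12, 37 of the 42 members lay above the mean of their group, in library 14 it was 31 and in library 19 it was 28. In library 13 of the same HFD control group only 10 did. In whole liver RNA, fewer cells of a type and less RNA per cell cannot be told apart.

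**Figure D2:**
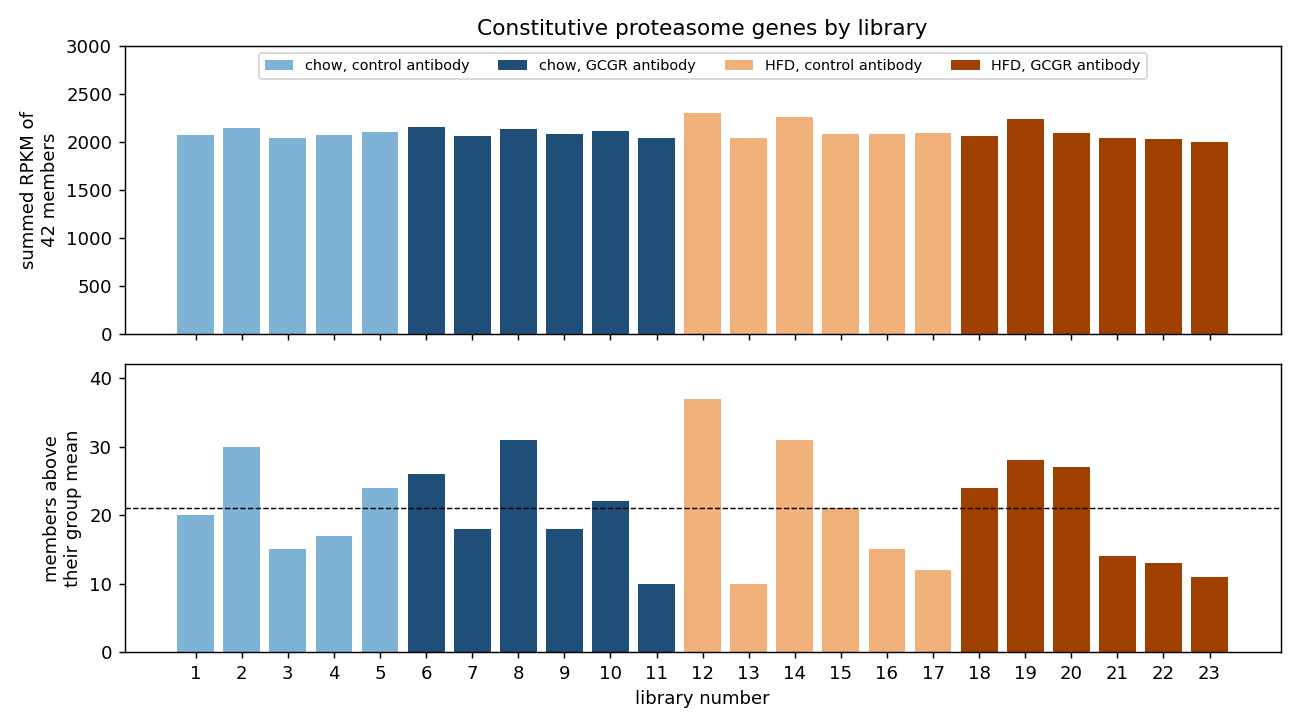
Summed RPKM of the 42 members (top) and the number of members above the mean of their own group (bottom; the dashed line marks 21 of 42) in each of the 23 libraries, coloured by group. Libraries 12, 14 and 19 have the highest sums, and the count above the mean is highest in library 12, at 37, and lowest in libraries 11 and 13, at 10 each.

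The first comparison asked whether blocking the glucagon receptor on chow changes liver RNA, and no constitutive proteasome gene passed the test (limma on log2(RPKM + 1), Benjamini-Hochberg adjusted p under 0.05). Of all genes tested, 0.946% passed, 0.394% higher and 0.553% lower. At an unadjusted p under 0.05 there were 3 of 42 members, beside 10.8% of all genes tested. The exact rank-sum test called 0 of all genes, so its count of 0 members carries no information. The median log2 fold change was 0.02 over the members and 0.03 over all genes tested. Above 0 were 30 of the 42 members, beside 7524 of the 11939 genes tested. All 42 of the 95% intervals lay within 0.5 of 0 on the log2 scale and 34 within 0.25. The largest differences were 0.17 ± 0.09 (SE, adjusted p = 0.506) for Psmg4, which helps to build the alpha ring, and -0.16 ± 0.10 (SE, adjusted p = 0.602) for Psmb1. The 2 groups did not overlap for 2 members, Psmd5 and Psmd9, both chaperones of the base, against 2.50% of all genes tested. For Psmd5 the control libraries held 12.91, 12.85, 12.61, 12.79 and 12.79 RPKM and the GCGR antibody libraries ran from 12.94 over a median of 14.17 to 16.05. The neighbouring ends of these ranges are close, and the adjusted p of Psmd5 was 0.340.

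On HFD the GCGR antibody had a wider effect on the liver, with 7.45% of genes passing the test, 5.33% higher and 2.12% lower. Among the members 1 passed, Psmd9, a chaperone that helps to assemble the ATPase ring of the base, and it was lower. Psmd9 ran from 10.37 over a median of 11.64 to 13.06 RPKM with control antibody and from 8.72 over a median of 10.30 to 11.20 with GCGR antibody. The ranges overlapped. Psmd9 fell by 0.20 ± 0.06 on the log2 scale (SE, adjusted p = 0.0341, limma). On chow its difference was -0.13 ± 0.06 (SE, adjusted p = 0.453), with values of 10.25, 10.29, 10.84, 10.05 and 9.95 RPKM under control antibody and 8.80, 9.33 and 9.87 as lowest, median and highest under GCGR antibody. The test of the difference between both antibody effects gave -0.08 ± 0.08 for Psmd9 (SE, adjusted p = 0.799). The Psmd9 call was lost in 9 of 32 alternative analyses, among them those without library 12, 14, 15, 16, 21 or 22 taken singly, and its adjusted p ran from 0.00591 to 0.191 over all of them. The annotation places the lincRNA Gm26745 over 1849 exonic bases of Psmd9 on the opposite strand, and no source used here says how far strand was used in counting.

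The remaining members on HFD lay slightly below 0 more often than above it. The median log2 fold change was -0.03 over the 42 members and 0.05 over all genes tested. Above 0 were 14 of the 42 members, beside 7501 of the 11939 genes tested. All 6 base ATPases and all 3 catalytic subunits had negative values and none of them passed the test. Psmc5 and Psmc4, both ATPases of the base, were at -0.16 ± 0.05 (SE, adjusted p = 0.0760) and -0.15 ± 0.05 (SE, adjusted p = 0.0828). Psmd4, a ubiquitin receptor, was at -0.18 ± 0.06 (SE, adjusted p = 0.0835). Psmb6 was at -0.14 ± 0.05 (SE, adjusted p = 0.107), Psmb7 at -0.03 ± 0.05 (SE, adjusted p = 0.703) and Psmb5 at -0.06 ± 0.08 (SE, adjusted p = 0.649). Psma4, an alpha ring gene, had the largest positive value, 0.12 ± 0.06 (SE, adjusted p = 0.204). All 42 of the 95% intervals lay within 0.5 of 0. No member's groups were apart, against 2.85% of all genes tested.

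This comparison depended on the scaling and on single libraries. With median-ratio or TMM scaling of the RPKM columns 5 members were called lower (Psmc5, Psmd4, Psmc2, Psmd9 and Psmc4), and without library 19 there were 7 (Psmb6, Psmb3, Psmc5, Psmc1, Psmd4, Psmd9 and Psmc4), against 3.97%, 3.56% and 3.79% of all genes tested lower in those fits. Without library 12, 14, 15, 16, 21 or 22 taken singly, without 12 and 14 together, and with only the compared groups in the fit, 0 members were called. Over all genes, median-ratio scaling moved the split on HFD from 636 higher and 253 lower to 397 higher and 474 lower. At an unadjusted p under 0.05 there were 8 of 42 members in the analysis as reported, beside 24% of all genes tested. The exact rank-sum test called 0 of all genes here too.

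No member passed the test of the difference between the antibody effects on HFD and on chow, and 0.201% of all genes did, 0.126% higher and 0.0754% lower. At an unadjusted p under 0.05 there were 4 of 42 members, beside 9.86% of all genes tested. The extremes were Psmb1 at 0.22 ± 0.13 (SE, adjusted p = 0.618) and Psmb3, a beta subunit without a cutting site, at -0.23 ± 0.10 (SE, adjusted p = 0.459). The 95% intervals of this difference are wider: 41 of 42 lay within 0.5 of 0 and 16 within 0.25.

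**Figure D3:**
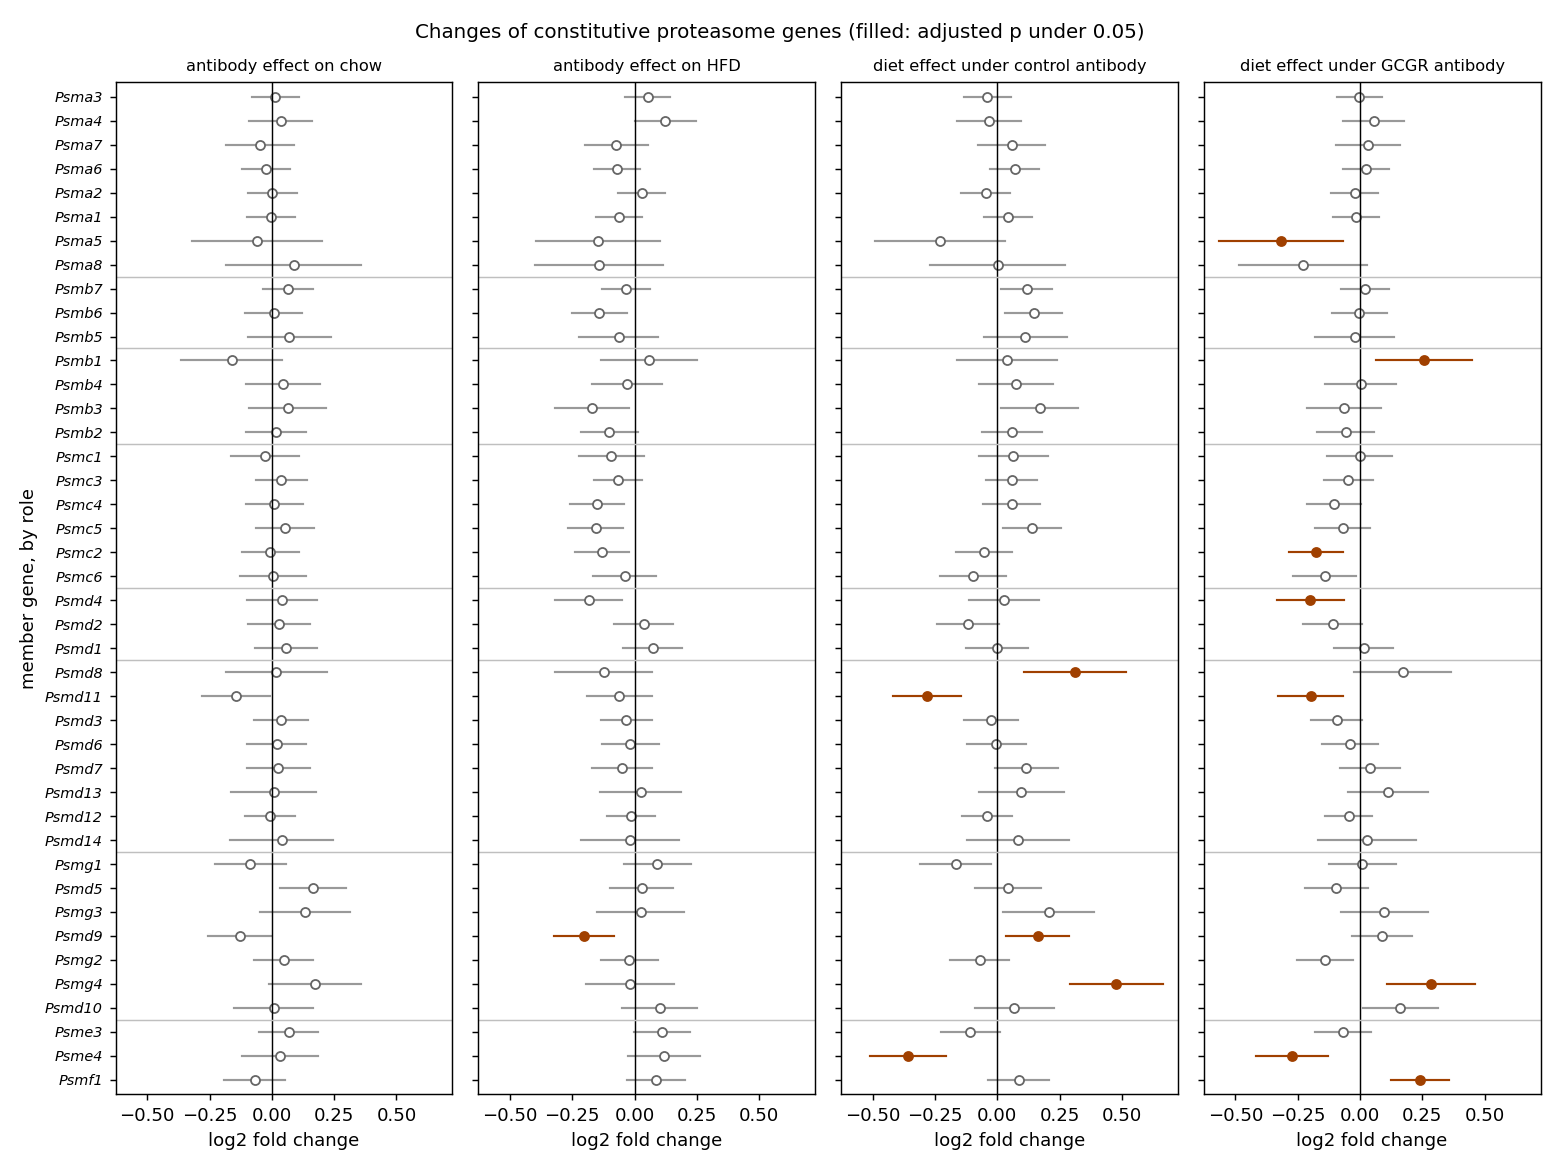
Log2 fold change on the log2(RPKM + 1) scale with its 95% interval for each of the 42 members, ordered by role, in the 4 pairwise comparisons (GCGR over control antibody, HFD over chow). Filled symbols passed an adjusted p of 0.05: 0 on chow, Psmd9 on HFD, 5 members for diet under control antibody and 8 for diet under GCGR antibody.

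Diet changed a large part of the liver transcriptome, and single proteasome genes moved with it in both directions. Under control antibody 29.9% of all genes passed the test, 11.6% higher and 18.3% lower on HFD, and 5 of the 42 members did, 3 higher (Psmg4, Psmd8 and Psmd9) and 2 lower (Psme4 and Psmd11). Under GCGR antibody 29.8% of all genes passed, 13.2% higher and 16.6% lower, and 8 members did, 3 higher (Psmg4, Psmf1 and Psmb1) and 5 lower (Psme4, Psmd11, Psmc2, Psmd4 and Psma5). The median log2 fold change of the members was 0.05 under control antibody and -0.02 under GCGR antibody, beside -0.03 and -0.02 over all genes tested. The members' counts, 5 and 8 of 42, were below these background shares in both comparisons, and that difference was not tested. Psmg4, Psme4 and Psmd11 were called in both. The 2 comparisons have no library in common, but the fit took the spread from all 23 libraries. The calls are therefore not independent. With only the compared groups in the fit, Psmg4 and Psme4 were called in both, and Psmd11 only under control antibody. The share of all genes called in both is not given here, so the overlap cannot be compared with a background. Over all genes, median-ratio scaling moved the split under control antibody from 1390 higher and 2183 lower to 1828 higher and 1818 lower, and the members called higher from 3 to 7.

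Psmg4, a chaperone that pairs with Psmg3 to build the alpha ring, had the largest rise on HFD. It held 6.53, 6.50, 5.68, 5.25 and 6.94 RPKM on chow with control antibody and ran from 6.80 over a median of 8.99 to 10.40 on HFD. Under GCGR antibody it ran from 6.40 over 6.97 to 7.98 on chow and from 7.47 over 8.86 to 10.29 on HFD. In each pair 1 HFD library, library 13 and library 23, reached into the chow range, and the other HFD libraries lay above it. The log2 fold change was 0.48 ± 0.09 under control antibody (SE, adjusted p = 0.000534) and 0.29 ± 0.09 under GCGR antibody (SE, adjusted p = 0.0144).

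Psme4 encodes PA200, a cap that does not need ubiquitin and is known from chromatin and sperm development. It held 20.6, 18.7, 22.7, 19.9 and 21.4 RPKM on chow with control antibody and ran from 14.9 over 15.7 to 17.4 on HFD. Under GCGR antibody it ran from 19.8 over 20.4 to 24.3 on chow and from 13.9 over 17.7 to 19.4 on HFD. All HFD libraries lay below all chow libraries under either antibody. Psme4 fell by 0.36 ± 0.07 on the log2 scale under control antibody (SE, adjusted p = 0.00119) and by 0.27 ± 0.07 under GCGR antibody (SE, adjusted p = 0.00582).

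Psmd11 is a scaffold subunit of the lid. Under control antibody it held 55.5, 52.3, 52.8, 57.7 and 50.1 RPKM on chow and ran from 41.5 over 43.2 to 48.6 on HFD, with no overlap. Under GCGR antibody it ran from 44.4 over 48.3 to 52.7 on chow and from 38.5 over 40.6 to 48.8 on HFD, with overlap. Psmd11 fell by 0.28 ± 0.07 on the log2 scale under control antibody (SE, adjusted p = 0.0033) and by 0.20 ± 0.06 under GCGR antibody (SE, adjusted p = 0.0217). The latter call was lost with only the compared groups in the fit, with the exact rank-sum test and without library 9, 10 or 21, with an adjusted p of up to 0.124 over all alternatives. The groups did not overlap for 4 members under control antibody, against 15.9% of all genes tested, and for 2 under GCGR antibody, against 10.3%.

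**Figure D4:**
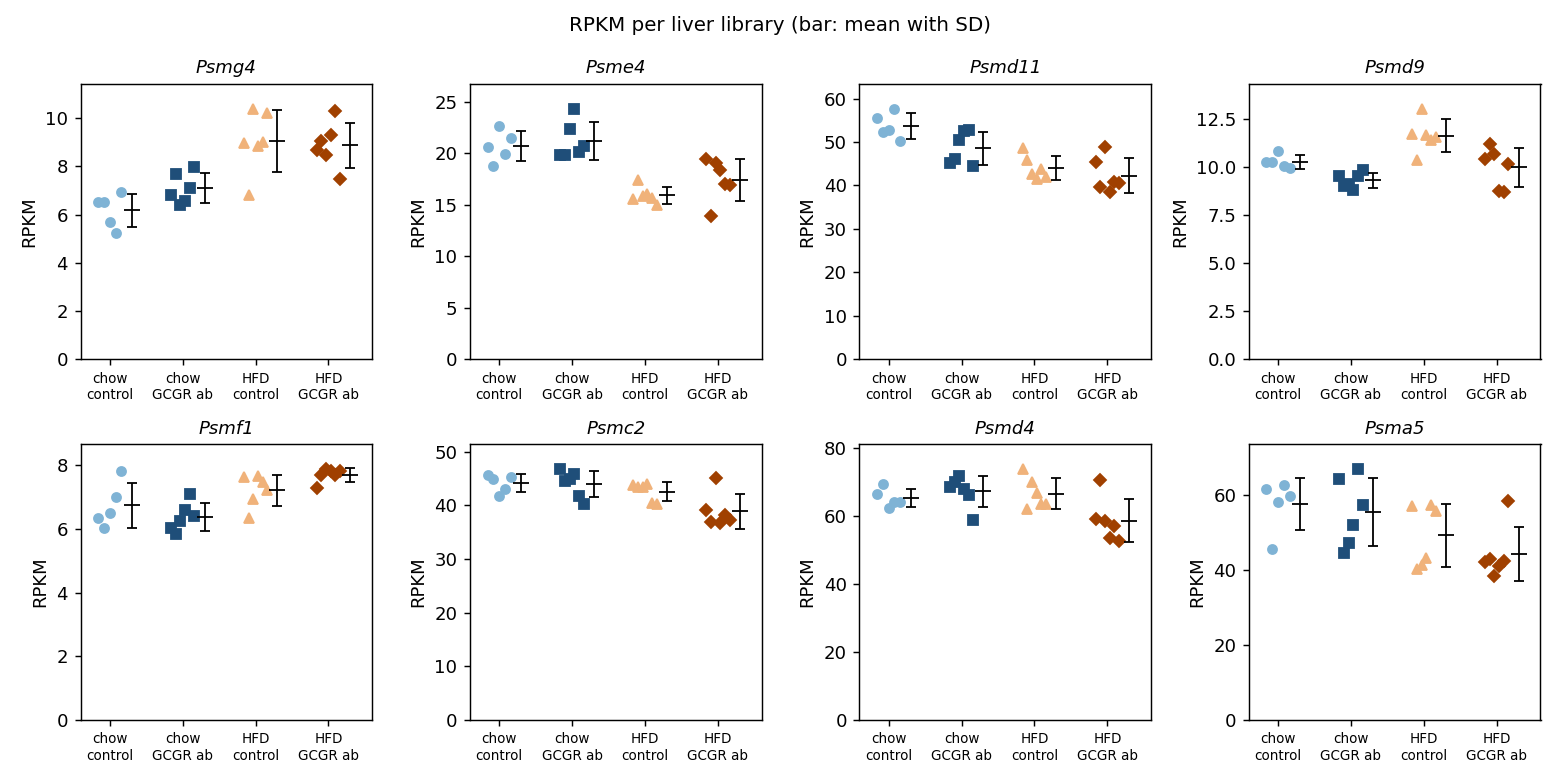
RPKM of 8 members in every library, by group, each axis starting at 0, with the group mean and SD as a bar beside the points. Psme4 and Psmd11 lie lower and Psmg4 higher on HFD under both antibodies, and the Psma5 points spread from 38.3 to 66.7 RPKM over the groups.

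The other calls belonged to 1 diet comparison each. Psmd8, a lid subunit, held 51.9, 54.2, 53.8, 57.6 and 57.0 RPKM on chow with control antibody and ran from 55.4 over 67.5 to 85.5 on HFD. Its rise of 0.31 ± 0.10 (SE, adjusted p = 0.0200) came with an SD of 12.8 RPKM on HFD against 2.35 on chow. The 3 highest HFD libraries were 14 at 85.5, 17 at 82.6 and 12 at 72.2, and the other 3 reached at most 62.8. Without library 14 and without library 17, taken one at a time, Psmd8 was not called, and its adjusted p ran from 0.00492 to 0.136 over all alternatives. Psmd9 rose on HFD by 0.16 ± 0.06 (SE, adjusted p = 0.0471), and that call was lost in 18 of 32 alternatives.

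Under GCGR antibody, Psmf1, which encodes the inhibitor PI31, ran from 5.84 over 6.34 to 7.10 RPKM on chow and from 7.29 over 7.75 to 7.87 on HFD. The ranges did not overlap, and the log2 fold change was 0.24 ± 0.06 (SE, adjusted p = 0.0028). Under control antibody the Psmf1 difference was 0.09 ± 0.06 (SE, adjusted p = 0.278). Psmc2, a base ATPase, ran from 40.3 over 44.7 to 46.7 RPKM on chow and from 36.7 over 37.7 to 45.2 on HFD, with 5 of the 6 HFD libraries at or below 39.1 and library 20 at 45.2. Psmc2 fell by 0.18 ± 0.05 on the log2 scale (SE, adjusted p = 0.0141), and the call was lost with only the compared groups in the fit and with the exact rank-sum test, with an adjusted p of up to 0.0914. Psmd4 ran from 58.7 over 68.2 to 71.8 RPKM on chow and from 52.7 over 57.8 to 70.4 on HFD, the highest being library 19. It fell by 0.20 ± 0.06 on the log2 scale (SE, adjusted p = 0.0234), and the call was lost with median-ratio scaling, with only the compared groups in the fit, with the exact rank-sum test and without library 8, 21 or 23, with an adjusted p of up to 0.166 over all alternatives.

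Psmb1 under GCGR antibody ran from 91.4 over 99.2 to 118.5 RPKM on chow and from 106.3 over 121.0 to 141.2 on HFD, with a log2 fold change of 0.26 ± 0.09 (SE, adjusted p = 0.0409). Psma5, an alpha ring subunit, ran from 44.5 over 54.6 to 66.7 RPKM on chow and from 38.3 over 42.1 to 58.3 on HFD, and fell by 0.32 ± 0.12 on the log2 scale (SE, adjusted p = 0.0495). The Psma5 call was lost in 22 of 32 alternatives, with an adjusted p of up to 0.161, and the Psmb1 call in 10, with an adjusted p of up to 0.128. Single libraries whose omission ended the Psmb1 call were 6, 7, 8, 10, 19, 21 and 22; for Psma5 there were more, in all 4 groups.

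Among the alpha ring genes, Psma5 had the widest spread after Psma8, whose level was close to the filter. The coefficient of variation over the 23 libraries was 17.7% for Psma5 and 54.4% for Psma8, and it ran from 4.04% for Psma3 to 7.36% for Psma7 over the other 6. On chow with control antibody it held 61.5, 45.6, 58.0, 62.5 and 59.7 RPKM. On HFD with control antibody, libraries 12, 16 and 17 held 57.1, 57.3 and 55.6 and libraries 13, 14 and 15 held 40.2, 41.3 and 43.2, so that 1 group was split into 3 and 3. Of the 33-base stretches of the Psma5 transcripts in GENCODE M21, 59.6% also occur in another gene, chiefly the processed pseudogene Gm8394, and reads had 33 cycles. A part of that copy in the values was not tested.

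Further members also share sequence with other genes. Over 50% of the 33-base stretches were shared for Psma5 and Psmb5, over 10% for 10 of the 42 members, and none for 13, among them Psmg4, Psme4 and Psmd4. For Psmb5 it was 70.1%, chiefly with the pseudogene Gm3375, and the microRNA gene Mir686 lies over 109 bases of its exons on the same strand. For Psmc1 it was 30.0%, chiefly with the pseudogene Gm9575. For Psmd9 it was 26.1%, with 25.0% in Gm26745, the lincRNA on the opposite strand of the same locus, which is not a copy. For Psmd11 it was 15.1%, chiefly with the processed transcript A730017L22Rik. Values of these genes are uncertain to the extent that reads of the other genes were counted with them.

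The interferon-induced counterparts, which are not members, moved where the constitutive catalytic genes did not pass the test. On HFD the GCGR antibody raised Psmb10 by 0.43 ± 0.08 (SE, adjusted p = 0.00232), Psmb8 by 0.48 ± 0.11 (SE, adjusted p = 0.0104) and Psmb9 by 0.54 ± 0.16 (SE, adjusted p = 0.0363) on the log2 scale. Psme1 and Psme2, the subunits of PA28 alpha and beta, were at 0.20 ± 0.07 (SE, adjusted p = 0.0720) and 0.18 ± 0.06 (SE, adjusted p = 0.0583). On chow 0 of the 5 passed, with 1 at an unadjusted p under 0.05. None of the 5 passed the test of the difference between diets, where Psmb9 was at 0.39 ± 0.23 (SE, adjusted p = 0.590).

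Each inducible catalytic subunit takes the place of 1 constitutive one, so the ratio of RPKM was taken within each library, which cancels the scaling between libraries. These ratios were added after the values were seen. The annotation places Tap1, a gene of the interferon response list below, over 212 exonic bases of Psmb9 on the opposite strand. The antisense gene Gm20496 lies likewise over 498 bases of Psmb8, and 70.1% of the Psmb5 stretches are shared with other genes. How far strand was used in counting is not known, and a part of these genes in the ratios was not tested. On HFD the ratio Psmb9/Psmb6 was 0.146 ± 0.0414 (SD, n = 6) with control antibody and 0.232 ± 0.0200 (SD, n = 6) with GCGR antibody. Psmb10/Psmb7 was 0.148 ± 0.0198 and 0.206 ± 0.0197 (SD, n = 6 each), and Psmb8/Psmb5 was 0.224 ± 0.0279 and 0.332 ± 0.0412 (SD, n = 6 each). In all 3 ratios every GCGR antibody library lay above every control library. The two-sided exact permutation test gave p = 0.00216 for each, the smallest it allows with 6 against 6, and 0.00519 after Benjamini-Hochberg adjustment over 12 tests.

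On chow the 3 ratios were 0.102 ± 0.0332, 0.153 ± 0.0217 and 0.195 ± 0.0485 with control antibody (SD, n = 5) and 0.111 ± 0.0154, 0.162 ± 0.0210 and 0.211 ± 0.0276 with GCGR antibody (SD, n = 6). The adjusted exact p-values of the antibody differences on chow were 0.519, 0.567 and 0.519. Between diets, all 3 ratios were higher on HFD under GCGR antibody, with adjusted exact p-values of 0.00519, 0.0130 and 0.00519. Under control antibody they were 0.148, 0.652 and 0.292. As single genes, 2 of the 5 inducible genes passed for diet under control antibody: Psmb9 rose by 0.61 ± 0.16 (SE, adjusted p = 0.00803, limma) and Psmb8 by 0.32 ± 0.12 (SE, adjusted p = 0.0419, limma). Under GCGR antibody Psmb9, Psmb8 and Psmb10 passed, with rises of 1.01 ± 0.16, 0.61 ± 0.11 and 0.36 ± 0.08 (SE). The antibody effects on the ratios were not tested against each other between diets.

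**Figure D5:**
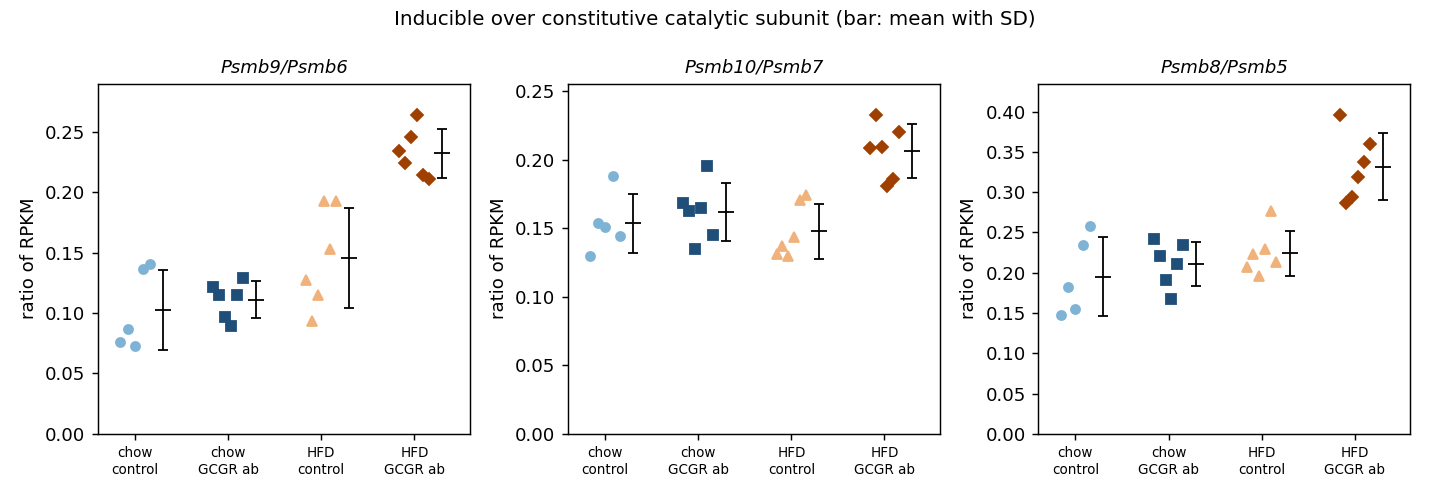
Ratio of RPKM of each inducible catalytic subunit to the constitutive subunit it replaces, in every library by group, with the group mean and SD as a bar beside the points and axes starting at 0. All 6 libraries of HFD with GCGR antibody lie above all 6 of HFD with control antibody in each ratio.

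Interferon response genes and some T and NK cell markers were also higher in HFD with GCGR antibody. Of 21 interferon response genes, 15 rose with the GCGR antibody on HFD and 0 fell, against 5.33% of all genes higher. Diet raised 11 of the 21 under control antibody and 18 under GCGR antibody, with 0 lower. The shares of all genes higher were 11.6% and 13.2%. For the difference between the antibody effects 0 of the 21 passed, with 12 at an unadjusted p under 0.05, beside 9.86% of all genes tested. With the GCGR antibody on HFD, Ifit1, an interferon-induced RNA-binding protein, rose by 1.23 ± 0.18 on the log2 scale (SE, adjusted p = 0.000116). Of 10 T and NK cell markers 5 passed the level filter, and 3 of these rose, Ccl5, Cd3g and Il2rb. The summed level of all 10, with those below the filter included, ran on HFD from 3.84 to 4.66 RPKM with control antibody and from 4.93 to 19.4 with GCGR antibody. Cd3d, Cd3e, Cd8a, Lck and Ncr1 were below the filter but at 0 in no group as a whole. Within the GCGR antibody group on HFD, library 23 had the lowest median deviation of the 5 tested T and NK cell markers from their group means, -0.40 on the log2 scale. That library was low more widely, with 28.9% of all genes tested above their group mean. Its deviations were -0.51 for stellate cell and fibroblast, -0.41 for neutrophil, -0.31 for macrophage and monocyte and -0.24 for endothelial markers. Hepatocyte markers were at 0.0019 and red blood cell markers at 0.12, and the other marker lists were below 0. The Psmb9/Psmb6 ratio of library 23, 0.211, was the lowest of the group, which ran up to 0.264. The Psmb10/Psmb7 ratio of library 23 was 0.220, in a group range of 0.181 to 0.232. Psmb8/Psmb5 was 0.359 there, in a group range of 0.287 to 0.395. These are values of 1 library. Of 11 macrophage and monocyte markers 1 rose and 0 fell. Sums over all 12 on that list, with Itgam below the filter included, ran from 55.2 to 103.3 RPKM with control antibody and from 56.8 to 92.7 with GCGR antibody. Of 9 endothelial and 10 stellate cell and fibroblast markers 1 each rose. At an unadjusted p under 0.05 there were 2 and 6 of them, beside 24% of all genes tested. Stellate cell and fibroblast sums ran from 86.4 to 145.3 RPKM with control antibody and from 81.5 to 191.9 with GCGR antibody. Among 10 hepatocyte and 6 red blood cell markers 1 each fell and 0 rose, with 3 each at an unadjusted p under 0.05. None of 6 dividing cell markers passed, with 1 at an unadjusted p under 0.05. Of the B cell, neutrophil and bile duct markers, 3 each, none passed, with 0 at an unadjusted p under 0.05. The part of such cells in the ratios was not tested.

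Genes that work with the proteasome were described from lists. The shares of all genes tested that passed were 7.45% for the antibody on HFD, 29.9% for diet under control antibody and 29.8% for diet under GCGR antibody. Of 17 proteasome partners without a Psm name, 0 passed for the antibody on HFD and 5 passed for diet under control antibody. Those were Pomp, the chaperone of the beta ring, at 0.21 and Zfand2a, an arsenite-induced partner, at 0.32, both higher, and Ubqln2, a shuttle for ubiquitinated proteins, at -0.34, Rad23b, another shuttle, at -0.20 and AI314180, also called Ecpas, at -0.30, all lower on the log2 scale. AI314180 had an adjusted p of 0.00328 and Ubqln2 one of 0.00580. At an unadjusted p under 0.05 there were 0 partners for the antibody on HFD, beside 24% of all genes tested.

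Of 14 genes that control proteasome transcription, 3 passed for diet under control antibody, 2 higher and 1 lower. Under GCGR antibody 4 passed, all higher. The largest log2 fold changes on the list were 0.72 and 0.85 in that order, in genes other than Nfe2l1, so the genes named here are only a part of the list. Nfe2l1 itself ran from 25.3 over 28.8 to 31.2 RPKM on chow and from 33.5 over 37.0 to 40.6 on HFD with control antibody, with no overlap. It rose by 0.37 ± 0.07 (SE, adjusted p = 0.000477) under control antibody and by 0.38 ± 0.07 (SE, adjusted p = 0.000160) under GCGR antibody. Ddi2, the protease that activates the Nfe2l1 protein, fell by 0.43 ± 0.13 on the log2 scale under control antibody (SE, adjusted p = 0.0205). Under GCGR antibody its difference was -0.30 ± 0.13 (SE, adjusted p = 0.0783). Beside these, 5 and 8 of the 42 members passed in the same comparisons. Neither gene passed for the antibody on chow or on HFD.

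Ubiquitin genes and activating enzymes were a list of 7. For the antibody on HFD 1 passed, Uba7, which activates the ubiquitin-like protein Isg15, with a rise of 0.58 ± 0.10 (SE, adjusted p = 0.00112). For diet under control antibody 1 passed, the polyubiquitin gene Ubb, with a rise of 0.30 ± 0.10 (SE, adjusted p = 0.0241). Among related machines, 0 of 15 genes of VCP and its cofactors and 0 of 10 genes of the COP9 signalosome, a complex built like the lid, passed for the antibody on HFD, with 3 and 1 at an unadjusted p under 0.05. For diet under control antibody, 2 rose and 4 fell among the VCP genes and 2 rose and 2 fell among the signalosome genes. Under GCGR antibody 0 rose and 6 fell among the VCP genes and 1 rose and 1 fell among the signalosome genes. Further lists were the CCT chaperonin (8 genes), autophagy and lysosome (20) and immediate early and heat shock (12). In each of these, 1 gene rose and 0 fell for the antibody on HFD. For diet under control antibody 0, 2 and 0 rose and 2, 1 and 0 fell, in that order. Under GCGR antibody 0, 7 and 1 rose and 2, 5 and 3 fell.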

How the data were processed

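Poly(A) RNA-seq of liver was analysed in 23 libraries. Per the labels' protocols, strand-specific libraries (KAPA mRNA-Seq kit) were amplified by 12 PCR cycles and read as single reads of 33 cycles on a HiSeq 2500. The submitters' processing notes name bcl2fastq 2.17, FastQC and GRCm38. No source used here names the aligner, counter, annotation or strand setting. The values are RPKM per gene, as deposited by the authors.

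Genes with at least 0.5 RPKM in at least 5 libraries were kept. Values were taken as log2(RPKM + 1), so fold changes of low genes are understated. limma 3.58.1 in R 4.3.3 fitted 4 group means over all 23 libraries, with a trend on mean level, and 5 contrasts were tested with Benjamini-Hochberg adjustment over 11939 genes at 0.05. The limma code was tested on simulated data. Ratios within libraries were tested by two-sided exact permutation of log2 ratios. Members were described by role. Values were given for up to 8 called members per comparison and for the extremes of each comparison. They were also given for the catalytic subunits and the 2 highest and 2 lowest members. From each list other than cell type markers, the 2 genes with the smallest adjusted p were to be named. This held for the antibody on HFD and for diet under control antibody. Only some of these genes are given in the text, and other list genes named there were chosen after their values were seen. Members and gene lists were chosen with earlier results of these data known. Alternatives were another pseudocount (0.1), no filter, 2 other scalings, another fit or test, and libraries left out. Shared 33-base stretches were counted on both strands of GENCODE M21 transcripts. Promoters came from RefSeq, and promoters and gene positions were matched by gene identifier. Overlapping exons and shared stretches were matched by symbol.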

Additional observations from a re-analysis of the deposited data

Results flagged for a closer look

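Single libraries that lay far from the others of their group (Dixon's test at the 95% level) were looked for in the RPKM of named members, over 84 groups of libraries, and 9 were found. Chance gives about 1 in 20. In HFD with GCGR antibody, library 19 was highest for Psmb3 at 101.3 RPKM, with the others from 71.7 to 81.3. The same library was highest for Psmd8 at 79.1, with the others from 55.5 to 63.2, and for Psmd4 at 70.4, with the others from 52.7 to 59.0. Library 20 of that group was highest for Psmc2 at 45.2 RPKM, library 18 lowest for Psmf1 at 7.29 and library 23 lowest for Psmb7 at 99.5. Psma5 stood apart in library 23 at 58.3 RPKM, with the others of that group from 38.3 to 42.8, and in library 2 of chow with control antibody at 45.6, with the others from 58.0 to 62.5. Psma8 stood apart in library 8 of chow with GCGR antibody at 1.44 RPKM, with the others from 0.312 to 0.546.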

How the results depend on the processing

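No paired analysis was possible because the library numbers run from 1 to 23 and no number occurs in more than 1 group. Of the values for single named members, 528 kept their direction and side of the threshold and 76 lost the call, with no reversal. The 528 include the extremes that were not called and had no call to lose, so all 76 losses fell among the calls. The calls of Psmg4 and Psme4 for both diet comparisons, of Psmd11 under control antibody and of Psmf1 were kept in all alternatives, and the causes of the changes below were not tested. Leaving out 1 library at a time gave 0 to 7 members lower for the antibody on HFD, 1 to 6 members higher for diet under control antibody and 2 to 5 members lower for diet under GCGR antibody. With all libraries, the shares of all genes tested called in those directions were 2.12%, 11.6% and 16.6%. Leaving out single libraries gave 57 to 134 genes called for the antibody on chow, 544 to 1604 on HFD, 5 to 65 for the difference, 2787 to 3988 for diet under control antibody and 2944 to 3819 under GCGR antibody. Without libraries 19 and 20, 8 members were lower for the antibody on HFD, beside 3.95% of all genes tested. In that fit 6 members were higher for diet under control antibody, beside 13.5%, and 132 genes passed for the difference. Without libraries 12 and 14, chosen after seeing the data, these were 0 members beside 0.988%, 1 member beside 6.46%, and 4 genes. There, 340 genes passed for the antibody on HFD and 2114 for diet under control antibody. Median-ratio scaling gave 5 members lower for the antibody on HFD, 7 higher for diet under control antibody and 3 lower under GCGR antibody, and TMM scaling gave 5 and 6 for the first 2 of these. With only the groups compared in the fit, these were 0 members lower for the antibody on HFD, with 423 genes called, and 1 member lower for diet under GCGR antibody. The exact rank-sum test called 0 genes for the antibody on chow and 0 on HFD, 0 members lower on HFD, and 1 member lower and 2267 genes for diet under GCGR antibody. Without a filter, 69 genes passed for the antibody on chow and 7 for the difference. For the ratio Psmb10/Psmb7, the log2 difference between diets under GCGR antibody was 0.30 without libraries 19 and 20 (adjusted exact p = 0.0571), and under control antibody it was 0.021 without library 4 and 0.029 without libraries 12 and 14, against -0.06 with all libraries, and from -0.11 to 0.021 when 1 library was left out. Depth is unknown, so its limits cannot be given.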
